A study of Mus musculus with 2 samples.

Results

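Ipp, BC023719, Nr1h5, Dera, Slc25a13, Myo1f and Gc are 7 autosomal genes, of 32286 features counted, whose RNA differed many-fold between the wild-type (WT) and the Cnot8 knockout (KO) cells that had been mixed in each of 2 mouse single-cell RNA sequencing (scRNA-seq) libraries. They were chosen by name, with their levels in these libraries already known, so the WT and KO levels below describe the choice and carry no test. Cnot8 is a catalytic subunit of Ccr4-Not, the main complex that removes poly(A) tails and so starts the decay of mRNAs. One library held embryonic stem cells (ESCs) grown in serum/LIF on mouse feeder fibroblasts (0 h), and the other held epiblast-like cells after 48 h of differentiation with activin A, bFGF and knockout serum replacement (48h-EpiLCs). The WT line bore ROSA mT/mG, from which tdTomato is transcribed, and KO cells came from an ESC line without Cnot8, derived from a blastocyst of heterozygous parents whose Cnot8 exon had been cut by Cas9.

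The labels give the strain ICR, an outbred stock, and the genotype wild type for both libraries, although each was a mixture, and the derivation of the WT reporter line is not given in the sources used here. Each genotype was a line of its own, so genotype, genetic background, sex, clone and culture history cannot be told apart in what follows. Stage and library are likewise the same thing, because there was 1 library per stage. EpiLC formation is described in the methods for ESCs kept in 2i/LIF, and the 0 h library was labelled serum/LIF.

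A cell was called WT when it held at least 1 tdTomato UMI (unique molecular identifier, 1 captured RNA molecule) and 0 UMIs of the Y-linked genes Ddx3y, Eif2s3y, Kdm5d and Uty, and KO when it held no tdTomato and at least 2 UMIs of these 4 genes. Of 11054 ESCs kept, 435 were WT-called and 2978 KO-called, and of 9400 48h-EpiLCs kept, 368 and 2977 were. The median depth was 13151 UMIs in WT-called and 13368 in KO-called ESCs, and 15598 and 17628 in 48h-EpiLCs. The call left 69.1% of kept ESCs and 64.4% of kept 48h-EpiLCs without a line. These uncalled cells included 2238 ESCs and 1724 48h-EpiLCs without tdTomato that held exactly 1 Y-linked UMI, just outside the threshold for KO. In each library 35 cells held tdTomato and at least 2 Y-linked UMIs, at median depths of 23516 and 27525 UMIs, and 41 barcodes occurred in both libraries, 26 of them among kept cells. Cnot8 itself gave no check of the KO label: its level in CPM (UMIs summed over the cells of a line and scaled to a common total) was 43.1 in WT-called and 72.1 in KO-called ESCs, and in 48h-EpiLCs 49.7 and 62.6. The 3' counting need not cover the edited exon. Xist, the RNA of the inactive X chromosome, stood at 10.2 CPM in WT-called and 13.4 CPM in KO-called ESCs and, in 48h-EpiLCs, at 3.05 and 8.18 CPM.

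The 7 genes have unrelated functions. Ipp (IAP-promoted placental gene) encodes a kelch-repeat protein and is named for a transcript that starts in an intracisternal A particle, a retrotransposon of the mouse. Nr1h5 encodes farnesoid X receptor beta, a nuclear receptor that pairs with retinoid X receptors, and BC023719 is a long noncoding RNA antisense to genes of the H2-T part of the major histocompatibility complex. Dera encodes deoxyribose-phosphate aldolase, which feeds the sugar of broken-down DNA into glycolysis. Slc25a13 encodes citrin, an aspartate-glutamate carrier of the inner mitochondrial membrane that serves the malate-aspartate shuttle. Myo1f encodes a class I myosin best known in leukocytes, and Gc encodes the vitamin D-binding protein of blood plasma, a relative of albumin made by the liver.

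The sequence just before the annotated start is shown for 4 of the genes: Ipp and Nr1h5, whose levels were the most alike among the 7, and Myo1f and Gc, whose levels were furthest apart between the 2 stages. Each run is the 250 bases before the start on the strand of the gene, from RefSeq promoters on GRCm38.p6, with every CG pair in capitals. The regions are chr4:116507299-116507548 (Ipp, forward strand), chr3:102964134-102964383 (Nr1h5, reverse strand), chr17:33555457-33555706 (Myo1f, forward strand) and chr5:89457899-89458148 (Gc, reverse strand).
Ipp: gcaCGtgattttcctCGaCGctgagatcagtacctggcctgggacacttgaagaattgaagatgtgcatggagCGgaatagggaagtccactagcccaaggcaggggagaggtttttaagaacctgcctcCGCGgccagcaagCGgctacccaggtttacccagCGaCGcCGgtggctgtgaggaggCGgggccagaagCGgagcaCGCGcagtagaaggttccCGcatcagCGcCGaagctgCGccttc
Nr1h5: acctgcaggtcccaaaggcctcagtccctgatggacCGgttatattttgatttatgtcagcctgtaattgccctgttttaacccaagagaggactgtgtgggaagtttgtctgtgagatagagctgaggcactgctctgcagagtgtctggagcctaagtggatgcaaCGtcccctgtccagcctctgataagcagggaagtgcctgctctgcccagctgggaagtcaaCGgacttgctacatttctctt
Myo1f: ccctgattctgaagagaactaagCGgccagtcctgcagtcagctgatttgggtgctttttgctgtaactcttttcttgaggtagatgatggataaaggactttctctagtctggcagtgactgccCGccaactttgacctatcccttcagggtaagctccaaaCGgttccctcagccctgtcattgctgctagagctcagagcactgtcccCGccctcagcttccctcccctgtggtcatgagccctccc
Gc: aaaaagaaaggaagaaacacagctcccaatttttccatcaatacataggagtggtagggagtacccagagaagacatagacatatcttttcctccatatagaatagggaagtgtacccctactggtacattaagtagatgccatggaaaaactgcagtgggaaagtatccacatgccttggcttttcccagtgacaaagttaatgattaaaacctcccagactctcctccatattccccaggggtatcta
The 4 regions differed widely in CG content. Ipp had 18 CG pairs, Myo1f 4, Nr1h5 3 and Gc 0, against a median of 6 over 32851 RefSeq promoters cut to the same length. The region of Slc25a13 had 11 CG pairs, and the table of promoters held no entry for BC023719 or Dera. The letters TATAAA, read on both strands, were in none of the 5 regions and in 12.4% of all promoters. CCAAT, on either strand, was in the regions of Slc25a13 and Gc and in 33.8% of all, and GGGCGG was in that of Myo1f, on the other strand, and in 32.7% of all. Ipp and Nr1h5 held none of the 3 motifs. These matches are letters only, and the reads do not show which start was used.

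Ipp, BC023719 and Nr1h5 were higher in KO-called cells at both stages. Ipp stood at 8.12 CPM in WT-called ESCs (95% Poisson interval 6.03 to 10.7, 50 UMIs) and at 96.5 CPM in KO-called ESCs (93.7 to 99.5, 4258 UMIs). In 48h-EpiLCs it stood at 16.2 CPM (13.2 to 19.7) and 132 CPM (129 to 135). The KO level was thus 11.9-fold higher in ESCs (exact binomial interval 9.0 to 16) and 8.13-fold higher in 48h-EpiLCs (6.69 to 10.0). These and all later intervals cover counting error only, since no group had a replicate. BC023719 stood at 3.25 and 45.7 CPM in WT-called and KO-called ESCs. In 48h-EpiLCs it stood at 3.38 and 32.9 CPM. That was 14.1-fold (9.09 to 23.1) and 9.76-fold (6.36 to 15.8) higher in KO. Nr1h5 stood at 4.22 and 50.3 CPM in ESCs, 11.9-fold higher in KO (8.11 to 18.3). In 48h-EpiLCs it stood at 9.0 and 86.6 CPM, 9.62-fold higher in KO (7.40 to 12.8). For these 3 genes no WT interval reached a KO interval at either stage.

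Dera and Slc25a13 were higher in WT-called cells at both stages. Dera stood at 33.6 CPM in WT-called ESCs (29.2 to 38.5, 207 UMIs) and 6.87 CPM in KO-called ESCs (6.12 to 7.69, 303 UMIs), and at 41.5 CPM (36.6 to 46.9) and 7.96 CPM (7.26 to 8.71) in 48h-EpiLCs. The WT level was 4.90-fold higher in ESCs (4.08 to 5.86) and 5.21-fold higher in 48h-EpiLCs (4.46 to 6.08), nearly the same ratio at both stages. Slc25a13 stood at 65.6 CPM (59.4 to 72.4) and 12.7 CPM (11.6 to 13.7) in ESCs, a 5.19-fold difference (4.55 to 5.91). In 48h-EpiLCs it stood at 46.8 CPM (41.6 to 52.5) and 13.3 CPM (12.3 to 14.2), a 3.53-fold difference (3.07 to 4.04).

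Gc and Myo1f were high in WT-called ESCs and low everywhere else. Gc stood at 51.8 CPM in WT-called ESCs (46.3 to 57.8, 319 UMIs) and 7.30 CPM in KO-called ESCs (6.52 to 8.14), and at 10.6 CPM (8.21 to 13.5) and 2.43 CPM (2.05 to 2.86) in 48h-EpiLCs. The WT level was 7.10-fold higher in ESCs and 4.37-fold higher in 48h-EpiLCs (3.21 to 5.89). Myo1f stood at 54.1 CPM in WT-called ESCs (48.4 to 60.2, 333 UMIs) and 7.14 CPM in KO-called ESCs (6.37 to 7.98, 315 UMIs), 7.58-fold higher in WT (6.48 to 8.87). In 48h-EpiLCs the order was turned: WT-called cells held 8 UMIs, or 1.29 CPM (0.555 to 2.53), and KO-called cells 269 UMIs, or 4.54 CPM (4.01 to 5.11), 3.53-fold higher in KO (1.76 to 8.25). Myo1f was therefore high in WT in ESCs alone, and its mean level in 48h-EpiLCs was under the minimum of 5 CPM set for ratios across all genes.

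**Figure D1:**
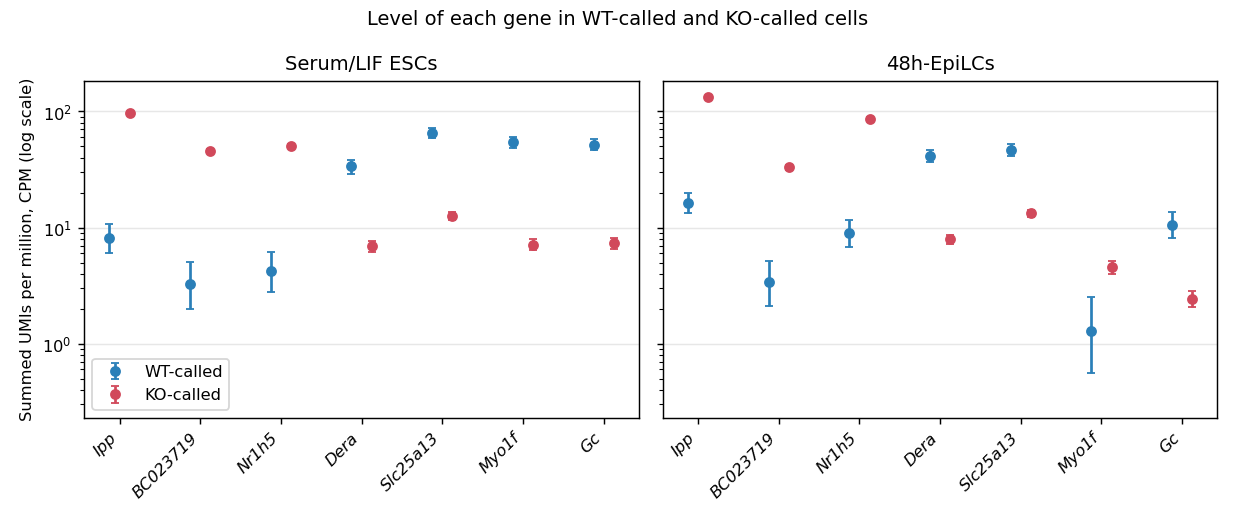
Level of the 7 genes in CPM (log axis) in WT-called (blue) and KO-called (red) cells, with serum/LIF ESCs on the left and 48h-EpiLCs on the right. Points are 1 library each and bars are 95% Poisson intervals. Ipp, BC023719 and Nr1h5 lie higher in KO-called cells in both panels, Dera, Slc25a13 and Gc lie lower, and Myo1f changes side, from 54.1 against 7.14 CPM to 1.29 against 4.54 CPM.

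On the log2 scale of CPM + 1, KO over WT, all 7 genes were past 2-fold in ESCs and the 6 that reached 5 CPM were past 2-fold in 48h-EpiLCs. Over all genes the share past 2-fold was 5.04% of 9277 in ESCs (3.59% higher and 1.46% lower in KO) and 3.25% of 9385 in 48h-EpiLCs (2.31% higher and 0.938% lower). Among autosomal genes alone it was 4.87% (3.55% higher and 1.32% lower) and 3.08% (2.23% and 0.851%). Since the genes were picked from these same differences, the counts are not evidence about them. The log2 ratios of the genes high in KO were 3.42 and 2.95 for Ipp, 3.46 and 2.96 for BC023719 and 3.30 and 3.13 for Nr1h5, with the ESC value first. Those of the genes high in WT were -2.14 and -2.25 for Dera, -2.29 and -1.74 for Slc25a13, and -2.67 and -1.76 for Gc. Myo1f had -2.76 and 1.28. The median of all genes was 0.12 in ESCs and 0.07 in 48h-EpiLCs, and with the ratios centred on it the genes past 2-fold split as 234 higher of 412 in ESCs and 172 of 282 in 48h-EpiLCs, against 333 of 468 and 217 of 305 uncentred.

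Among autosomal genes the ratios of the 7 lay at both ends of the order. In ESCs, BC023719, Ipp and Nr1h5 ranked 2nd, 4th and 6th from the top of 8955, and Myo1f, Gc, Slc25a13 and Dera ranked 1st, 2nd, 6th and 9th from the bottom. In 48h-EpiLCs, Nr1h5, BC023719 and Ipp ranked 2nd, 5th and 7th from the top of 9046, and Dera, Gc and Slc25a13 ranked 1st, 10th and 11th from the bottom. All 7 genes were past 4-fold in ESCs, where 0.514% of autosomal genes were, and 4 in 48h-EpiLCs, where 0.287% were. Past 2-fold in the same direction in both libraries were 106 autosomal genes (1.24%), with 6 of the 7 among them, and past 4-fold 15 of 8520 autosomal genes (0.176%), and Nr1h5, Ipp, BC023719 and Dera were 4 of them. The rank of a gene depends on how many UMIs stand behind it, and only 20 BC023719 UMIs were counted in WT-called ESCs.

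**Figure D2:**
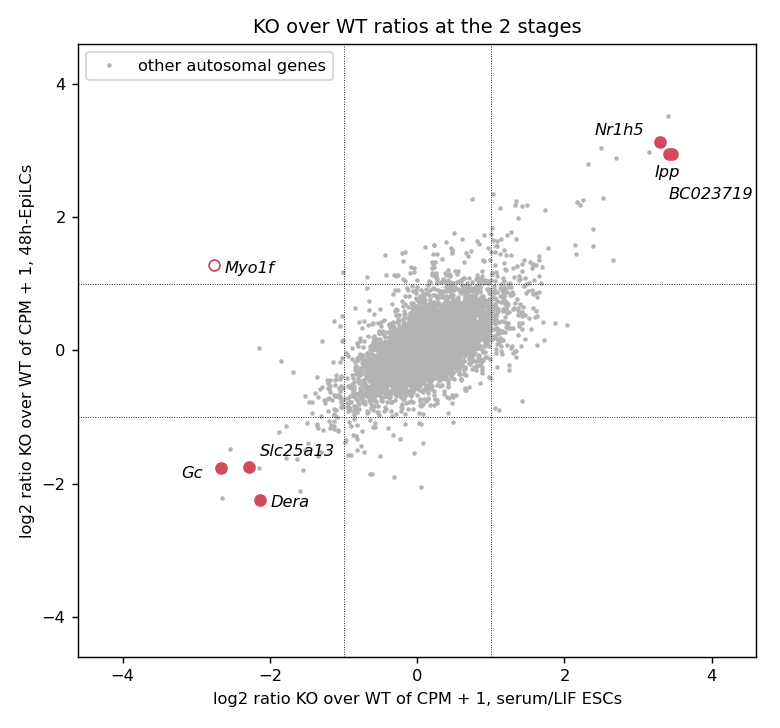
Each point is an autosomal gene with a mean of at least 5 CPM in both libraries (grey) or 1 of the 7 named genes (red), placed by its log2 ratio KO over WT of CPM + 1 in ESCs (x axis) and in 48h-EpiLCs (y axis). Dotted lines mark 2-fold. The open circle is Myo1f, which was under 5 CPM in 48h-EpiLCs and lies alone at -2.76 and 1.28, while Ipp, BC023719 and Nr1h5 lie at the upper right and Dera, Slc25a13 and Gc at the lower left.

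Within a line, the 2 stages were compared gene by gene. This contrast is built from the same 4 levels that were known when the genes were chosen, so it is a description too. Myo1f had by far the greatest change: it was 42.1-fold lower in 48h-EpiLCs than in ESCs within WT-called cells (log2 -5.39, interval -6.62 to -4.40) and 1.57-fold lower within KO-called cells (log2 -0.65, -0.89 to -0.42). Gc was 4.88-fold lower in WT and 3.01-fold lower in KO. The other 5 genes moved by about 2-fold or less. Nr1h5 was 2.13-fold higher in 48h-EpiLCs within WT (log2 1.09, 0.40 to 1.82) and 1.72-fold higher within KO (0.78, 0.71 to 0.86), and Ipp was 2.00-fold and 1.37-fold higher. Dera was 1.23-fold and 1.16-fold higher. Slc25a13 was 1.40-fold lower within WT, and within KO its interval included no change (log2 0.07, -0.09 to 0.23). BC023719 was 1.39-fold lower within KO, and 41 UMIs in WT left an interval of -0.90 to 1.01 around 0.06. Of the genes with a mean of at least 5 CPM over the stages, taken as log2 of CPM + 1, Myo1f (-4.59) and Gc (-2.19) were past 2-fold lower in WT, where 9.41% of 9242 genes were past 2-fold (4.76% higher and 4.65% lower), and no named gene was past 2-fold in KO, where 6.55% of 9478 were (2.52% and 4.03%). BC023719 in WT and Gc in KO, at -1.28, were under that minimum. For Ipp, Nr1h5, BC023719, Dera, Slc25a13 and Gc both levels of one line were above both levels of the other, most narrowly for Gc, where WT-called 48h-EpiLCs (8.21 to 13.5 CPM) stood just above KO-called ESCs (6.52 to 8.14 CPM).

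Cell by cell, no gene split the lines cleanly. At least 1 Ipp UMI was found in 60.6% of KO-called and 9.89% of WT-called ESCs, and in 75.5% and 17.7% of 48h-EpiLCs. Nr1h5 was found in 49.5% and 5.52% of ESCs and in 76.6% and 13.3% of 48h-EpiLCs, and BC023719 in 45.5% and 3.91%, and in 46.2% and 5.16%. Of the genes high in WT, Slc25a13 was found in 56.8% of WT-called and 14.9% of KO-called ESCs and in 51.6% and 20.8% of 48h-EpiLCs. Dera was found in 34.9% and 8.63% of ESCs and 44.6% and 13.2% of 48h-EpiLCs, Gc in 47.6% and 8.36%, and in 16.3% and 4.43%. Myo1f was found in 45.5% of WT-called and 8.09% of KO-called ESCs, but in 2.17% (exact interval 0.943 to 4.24) and 8.33% (7.36 to 9.38) of 48h-EpiLCs.

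After each cell was thinned to 5000 UMIs the order of the lines stayed as it was for each of the 7 genes at both stages. One ESC of WT and 23 of KO, and 1 and 9 48h-EpiLCs, were too shallow and left out. The thinned shares, WT first, were 3.46% and 34.6% for Ipp, 1.15% and 20.6% for BC023719 and 1.61% and 21.8% for Nr1h5 in ESCs. They were 15.0% and 2.74% for Dera, 28.1% and 4.26% for Slc25a13, 21% and 2.40% for Myo1f and 23.5% and 2.71% for Gc. In 48h-EpiLCs the widest gaps were those of Ipp (5.45% and 43.8%) and Nr1h5 (5.45% and 35.2%), and the narrowest those of Gc (4.90% and 0.910%) and Myo1f (0.545% and 2.53%), where the intervals of Myo1f all but met (0.0661 to 1.95 and 1.99 to 3.16). With at least 2 UMIs asked for, fewer cells of either line passed: in 48h-EpiLCs 56.4% of KO-called cells passed it for Ipp against 4.89% of WT-called cells, and 47.5% against 1.09% for Nr1h5.

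**Figure D3:**
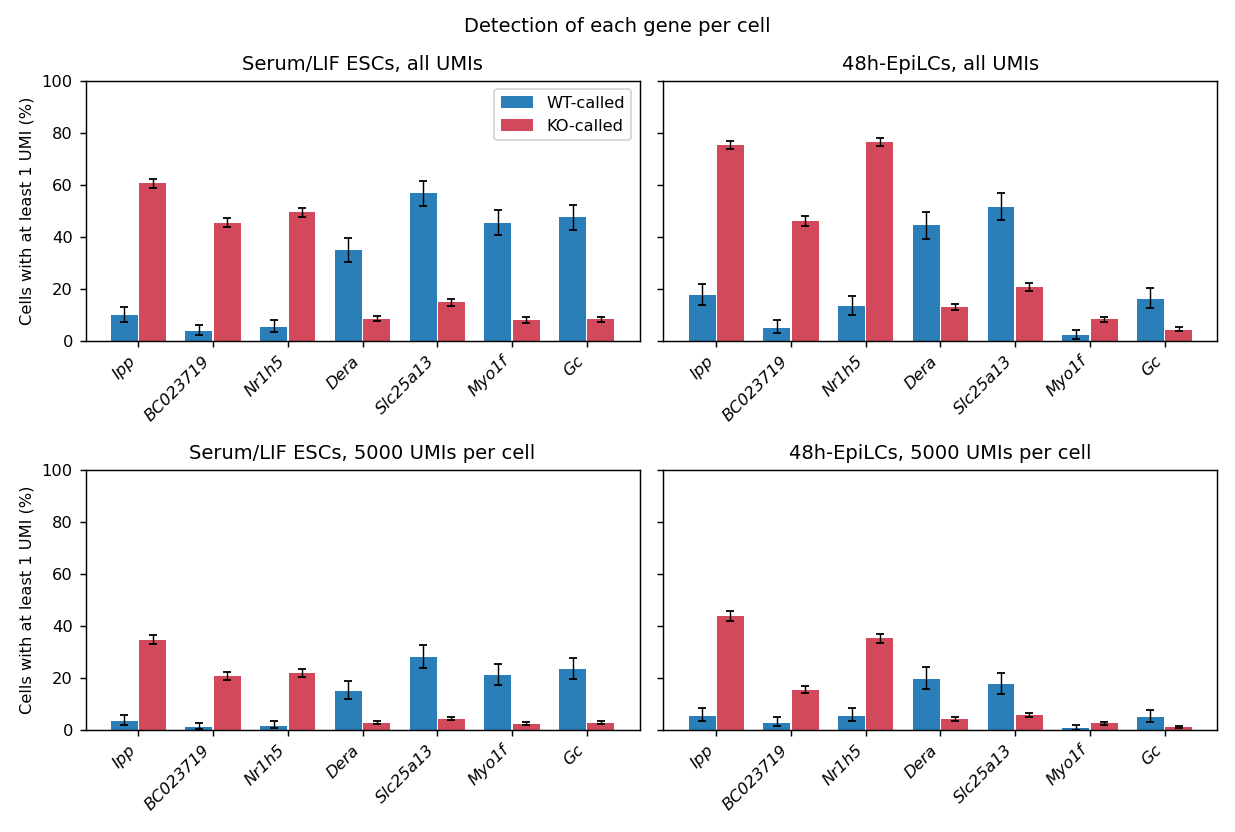
Share of WT-called (blue) and KO-called (red) cells with at least 1 UMI of each gene (y axis, percent), from all UMIs (upper row) and after thinning to 5000 UMIs per cell (lower row), in ESCs (left) and 48h-EpiLCs (right). Bars start at 0 and error bars are exact 95% binomial intervals. Detection reached at most 76.6% of a line (Nr1h5 in KO-called 48h-EpiLCs), and each gene was also found in some cells of the other line.

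The area under the receiver operating characteristic curve, 0.5 for no separation and 1 for a complete one, was 0.77 for Ipp, 0.72 for Nr1h5 and for Slc25a13, 0.71 for BC023719, 0.70 for Gc, 0.69 for Myo1f and 0.63 for Dera in ESCs. In 48h-EpiLCs it was 0.84 for Nr1h5, 0.83 for Ipp, 0.71 for BC023719, 0.66 for Dera and for Slc25a13, 0.56 for Gc and 0.53 for Myo1f. The UMIs of Ipp, BC023719 and Nr1h5 minus those of Dera, Slc25a13 and Gc gave 0.947 in ESCs and 0.955 in 48h-EpiLCs, and 0.858 and 0.835 after thinning. The 6 genes together thus ordered the called cells far better than any gene alone, although the cells and genes are those used to choose them.

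Of the 7 genes, Ipp spread most between KO-called cells. In these, 39.4% of ESCs held none where a Poisson count at each cell's depth gives 27.4%, and 24.5% of 48h-EpiLCs where it gives 11%. Its variance was 1.93 and 2.49 times the Poisson value. In WT-called 48h-EpiLCs it was 2.54 times, of which 1 cell with 11 UMIs had a large part, since it was 1.60 times without that cell, and in WT-called ESCs it was 1.25 times, below the 1.61 of Myo1f. Up to 10 Ipp UMIs were counted in a KO-called ESC and up to 17 in a 48h-EpiLC, and 14.0% of KO-called 48h-EpiLCs held more than 5. For BC023719 and Nr1h5 in the same cells the share of zeros was 0.11 to 1.96 percentage points above the Poisson share. Myo1f in WT-called ESCs had 54.5% zeros against 47.9%.

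Most called cells held UMIs of their own line's genes and none of the other kind. Of WT-called ESCs, 72.4% held UMIs of Dera, Slc25a13 or Gc and none of Ipp, BC023719 or Nr1h5, 2.76% held the reverse, 13.3% held both kinds and 11.5% neither. KO-called ESCs held the 3 genes high in KO alone in 64.6%, those high in WT alone in 3.06%, both kinds in 21.9% and neither in 10.4%. In 48h-EpiLCs the matching shares were 55.4%, 7.61%, 21.5% and 15.5% of WT-called cells, and 65.6%, 1.11%, 30.5% and 2.79% of KO-called cells, again with the line's own genes first. Cells with both kinds were deeper: their median was 17353 UMIs against 13081 for KO-called ESCs with the KO genes alone, and 21996 against 16844 in 48h-EpiLCs. Of the 35 ESCs with tdTomato and at least 2 Y-linked UMIs, 29 (82.9%, exact interval 66.3 to 93.4) held both kinds, as did 22 of 35 (62.9%) 48h-EpiLCs.

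**Figure D4:**
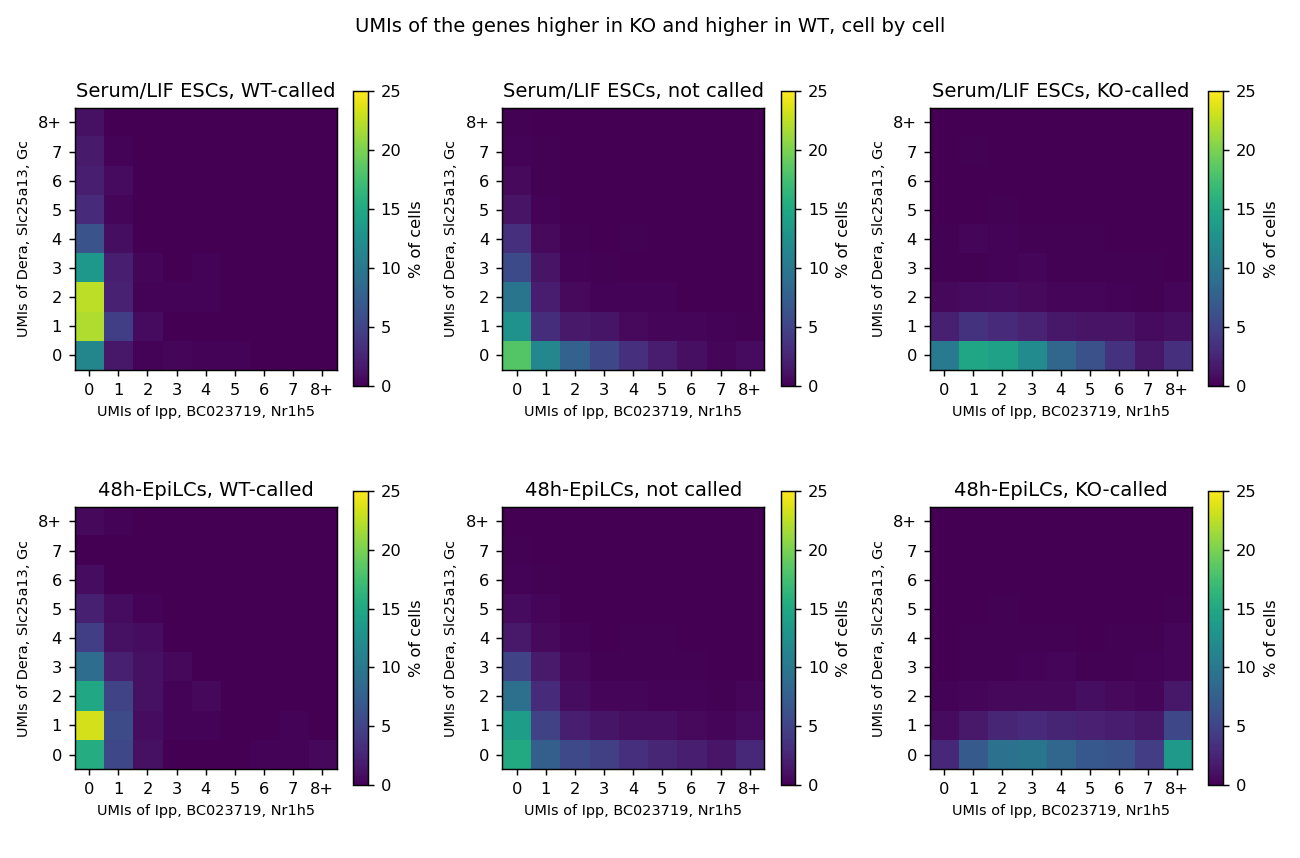
Share of cells (colour, percent) by the number of UMIs of Ipp, BC023719 and Nr1h5 together (x axis) and of Dera, Slc25a13 and Gc together (y axis), with 8 and more in 1 class. ESCs are above and 48h-EpiLCs below, and the columns are WT-called, uncalled and KO-called cells. WT-called cells lie along the y axis and KO-called cells along the x axis, and uncalled ESCs lie along both, 33.8% with the genes high in WT alone and 32.4% with the genes high in KO alone.

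The cells without a call split the same way. Of uncalled ESCs, 32.4% held the genes high in KO alone, 33.8% those high in WT alone, 15.5% both and 18.3% neither, and of uncalled 48h-EpiLCs 30.4%, 31.2%, 23.3% and 15.1%. Read from the other side, 3080 of all kept ESCs held at least 2 UMIs of Ipp, BC023719 and Nr1h5 and none of Dera, Slc25a13 and Gc, and 1859 held the reverse pattern. Of the 3080, 1482 were KO-called, and of the 1859, 219 were WT-called, and in those the Y-linked and tdTomato UMIs are set by the call. The cells without a call are therefore given alone. A Y-linked UMI was held by 55.6% of the 1593 uncalled ESCs of the first kind and by 7.56% of the 1614 of the second, at median depths of 11480 and 12978 UMIs. In 48h-EpiLCs it was held by 59.5% of 1378 and 10.3% of 1040 uncalled cells, at 14332 and 15508 UMIs. Uncalled cells without tdTomato hold at most 1 such UMI, so these shares have no counterpart in the called cells. Myo1f, which was not used to sort these cells, stood at 4.57 and 49.2 CPM in the 2 kinds of uncalled ESCs and at 4.41 and 1.35 CPM in the 2 kinds of uncalled 48h-EpiLCs, the same order as in the called lines.

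The direction of each difference was the same in the lowest, middle and highest tertile of called cells by depth, but its size was not. In ESCs, Myo1f was at 4.19, 3.33 and 10.7 CPM in KO-called cells of the 3 tertiles and at 63.0, 53.2 and 50.5 CPM in WT-called cells. Gc was at 3.87, 4.10 and 10.7 CPM in KO-called cells and at 41.7, 58.6 and 50.5 CPM in WT-called cells. Dera in KO-called ESCs was at 3.25, 4.56 and 9.85 CPM, and Slc25a13 at 8.48, 8.51 and 17.0 CPM. The low level of each of these 4 genes in KO-called ESCs was thus highest in the deepest tertile. Ipp in WT-called 48h-EpiLCs was likewise at 13.7, 9.41 and 25.1 CPM, and Nr1h5 at 8.78, 3.96 and 14.0 CPM. With the 10% of cells with the highest doublet scores (Scrublet) left out, the ESC log2 ratios KO over WT were -3.33 for Myo1f and -3.22 for Gc. They were -2.54 for Dera and -2.66 for Slc25a13. With all cells kept, these 4 ratios were -2.76, -2.67, -2.14 and -2.29. The part that doublets had in the low levels was not itself tested.

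The difference was also present in cells with and without RNA of Zfp42 (Rex1), a marker of naïve pluripotency. In 48h-EpiLCs with Zfp42 UMIs (154 WT-called, 2036 KO-called) Dera was at 38 and 8.46 CPM, and in those without (214 and 941) at 44.4 and 6.67 CPM. Ipp was at 20.9 and 129 CPM with Zfp42 and at 12.3 and 140 CPM without, and Nr1h5 at 9.23 and 83.7 CPM and at 8.81 and 94.2 CPM. Slc25a13 was at 52.6 and 13.7 CPM with Zfp42 and at 42.0 and 12.1 CPM without. Myo1f was lower in WT on both sides, at 1.42 and 4.93 CPM with Zfp42 and at 1.18 and 3.52 CPM without, and each WT value rested on 4 UMIs. In ESCs only 35 WT-called and 88 KO-called cells lacked Zfp42, and the 7 genes kept their direction in them too.

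Both lines expressed the pluripotency markers Pou5f1, Sox2, Zfp42, Utf1, Dppa5a and Tdgf1, at a sum of 5212 and 4767 CPM in WT-called and KO-called ESCs and 3767 and 3521 CPM in 48h-EpiLCs. The defining leukocyte genes were at or near 0 in WT-called ESCs, where Myo1f was high: Ptprc stood at 0.162 CPM, Spi1 at 0.487 CPM and Tyrobp at 0. The 5 genes of that list, with Coro1a and Laptm5, summed to 65.5 CPM in WT-called and 46.7 CPM in KO-called ESCs and, in 48h-EpiLCs, to 15.8 and 26 CPM. Laptm5, a lysosomal membrane protein of leukocytes on the same list, stood at 60.9 and 37.6 CPM in WT-called and KO-called ESCs and, in 48h-EpiLCs, at 7.88 and 18.0 CPM, the same order of lines at each stage as Myo1f. The 5 hepatocyte genes Alb, Afp, Apoa1, Ttr and Serpina1a summed to 1.30 and 0.975 CPM in ESCs, where Gc stood at 51.8 and 7.30 CPM. Fibroblast markers summed to 11.5 CPM in WT-called and 41.6 CPM in KO-called ESCs, with 2 of 9 at 0 in WT, and primitive endoderm markers to 23.7 and 42.6 CPM. With the cells rich in fibroblast, primitive endoderm or 2-cell-like markers left out, all 7 genes were still past 2-fold in ESCs.

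The ESC library held 134 cells with at least 10 UMIs of the fibroblast markers, in which the pluripotency markers summed to 1697 CPM against 4959 CPM in the other cells. Of the 134 cells, 48 were themselves KO-called and 1 was WT-called, so they are not separate from the KO-called ESCs they are set beside. By the methods, the feeders were inactivated embryonic fibroblasts of ICR mice. In these cells BC023719 was at 45.5 CPM (Poisson interval 37.4 to 54.9), within the interval of KO-called ESCs (43.8 to 47.8). Dera was at 25.9 CPM (19.9 to 33.2), nearer to the level of WT-called ESCs. Ipp was at 20.9 CPM (15.5 to 27.5), Nr1h5 at 13.4 CPM (9.14 to 18.9) and Slc25a13 at 17.1 CPM (12.3 to 23.2), between the levels of the lines or, for Slc25a13, near that of KO. Myo1f was at 5.43 CPM (2.89 to 9.29) and Gc at 8.77 CPM (5.43 to 13.4), with intervals that held the KO-called levels. Myo1f was found in 6.72% of these cells (3.12 to 12.4) and Gc in 12.7% (7.57 to 19.5), at a median of 15740 UMIs. The 8.09% and 8.36% of KO-called ESCs with these genes, at a median of 13368 UMIs, lie within those intervals, so no level above that of the fibroblast-marker cells is read from them. What these low counts come from was not tested. Ipp was found in 23.1% of the fibroblast-marker cells, Nr1h5 in 18.7%, Slc25a13 in 25.4%, Dera in 35.8% and BC023719 in 47.8%. From all UMIs, each share was above that in the line where the gene was low. After thinning, the interval of Ipp (4.51%) overlapped that of WT-called ESCs (3.46%), as did that of Nr1h5 (4.51% and 1.61%). The interval of Slc25a13 (8.27%) overlapped that of KO-called ESCs (4.26%). The intervals did not overlap for BC023719 (21.1% against 1.15% in WT-called ESCs) and Dera (11.3% against 2.74% in KO-called ESCs). Whether fibroblasts transcribe these 5 genes was not tested. The fibroblast-marker cells also held Y-linked RNA at 75.6 CPM, and how much RNA they took up from ESCs was not tested.

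The 7 genes lie on 5 chromosomes. On GRCm38 with GENCODE M21 they are Nr1h5 on chromosome 3 (102939658 to 102964133, reverse strand), Ipp on chromosome 4 (116507549 to 116538243, forward), Gc on chromosome 5 (89417522 to 89457898, reverse) and, on chromosome 6, Slc25a13 (6041218 to 6217173, reverse) and Dera (137754546 to 137857340, forward). Myo1f (33555707 to 33607764, forward) and BC023719 (36111426 to 36117121, forward) lie 2.56 Mb apart on chromosome 17, and one was high in WT-called and the other in KO-called ESCs. None lies on chromosome 11 with Cnot8 (58104153 to 58118594). The ROSA26 locus, in which the reporter of the WT cells sits, is on chromosome 6 (113067428 to 113077333), 24.7 Mb from Dera and 107 Mb from Slc25a13. Values summed over the gene body do not show which exons the reads came from. BC023719 overlaps H2-T-ps, Gm7030 and H2-T10 on the other strand, and whether any of their reads entered its count was not tested.

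Within 500 kb the neighbours of the 7 genes were past 2-fold about as often as all genes. In that window around their starts lay 79 genes of at least 5 CPM in ESCs, of which 4 (5.06%) were past 2-fold, against 5.04% of all genes, and 80 in 48h-EpiLCs, of which 3 (3.75%) were, against 3.25%. Their median log2 ratio was 0.04 in ESCs and 0.06 in 48h-EpiLCs. Sycp1, a protein of the synaptonemal complex of meiosis, starts 28.0 kb from the start of Nr1h5 on the same strand and followed it: it stood at 15.1 and 50.8 CPM in WT-called and KO-called ESCs (log2 1.68) and at 14.6 and 30.4 CPM in 48h-EpiLCs (log2 1.00). Sycp1 spans 102818499 to 102936100, so it begins just past the 3' end of Nr1h5 at 102939658. Transcripts of Sycp1 share 15.6% of their 31-base words with those of other genes. On the other side of Nr1h5, Sike1 had log2 ratios of 0.46 and 0.44. Strap, 19.5 kb before Dera on the same strand, stood at 206 and 151 CPM in ESCs and 205 and 193 CPM in 48h-EpiLCs, well inside 2-fold. Around Ipp, Lrrc41 was past 2-fold in ESCs (1.12) and not in 48h-EpiLCs (0.42), while the nearest genes Mast2, Tmem69 and Gpbp1l1 lay between -0.24 and 0.53 in both. Sike1, Strap, Mast2, Tmem69 and Gpbp1l1 were named for being nearest, after their values had been seen.

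Near BC023719, Ier3, an immediate early gene, stood at 132 and 34.4 CPM in 48h-EpiLCs (-1.91) and at 34.1 and 27.1 CPM in ESCs (-0.32). Near Myo1f, the class I histocompatibility gene H2-K1 had ratios of 1.02 in ESCs and 0.50 in 48h-EpiLCs, and the ribosomal protein gene Rps18 had -1.13 and -1.18. Summed with Gm10260 and Gm11361, which share much of its sequence, Rps18 was inside 2-fold, at -0.64 in ESCs and -0.81 in 48h-EpiLCs. No gene of at least 5 CPM started within 500 kb of Gc, and 1 did so near Slc25a13, at -0.12 and -0.10. Within 1000 kb, 8 of 131 genes (6.11%) were past 2-fold in ESCs, against 5.04% of all genes. In 48h-EpiLCs 8 of 136 (5.88%) were, against 3.25%. Both shares were larger than within 500 kb. Near BC023719 in this wider window, 3 of 39 genes in ESCs were past 2-fold, all higher in KO. They were H2-Q4 (2.16), H2-D1 (1.40) and Nfkbil1 (1.19). In 48h-EpiLCs 2 of 40 were higher, H2-Q4 (1.45) and H2-D1 (1.08), and 1, Ier3, was lower, while Nfkbil1 had 0.71. H2-Q4, H2-D1 and Nfkbil1 were named after their values had been seen. Whether their ratios and that of BC023719 have a common cause was not tested.

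**Figure D5:**
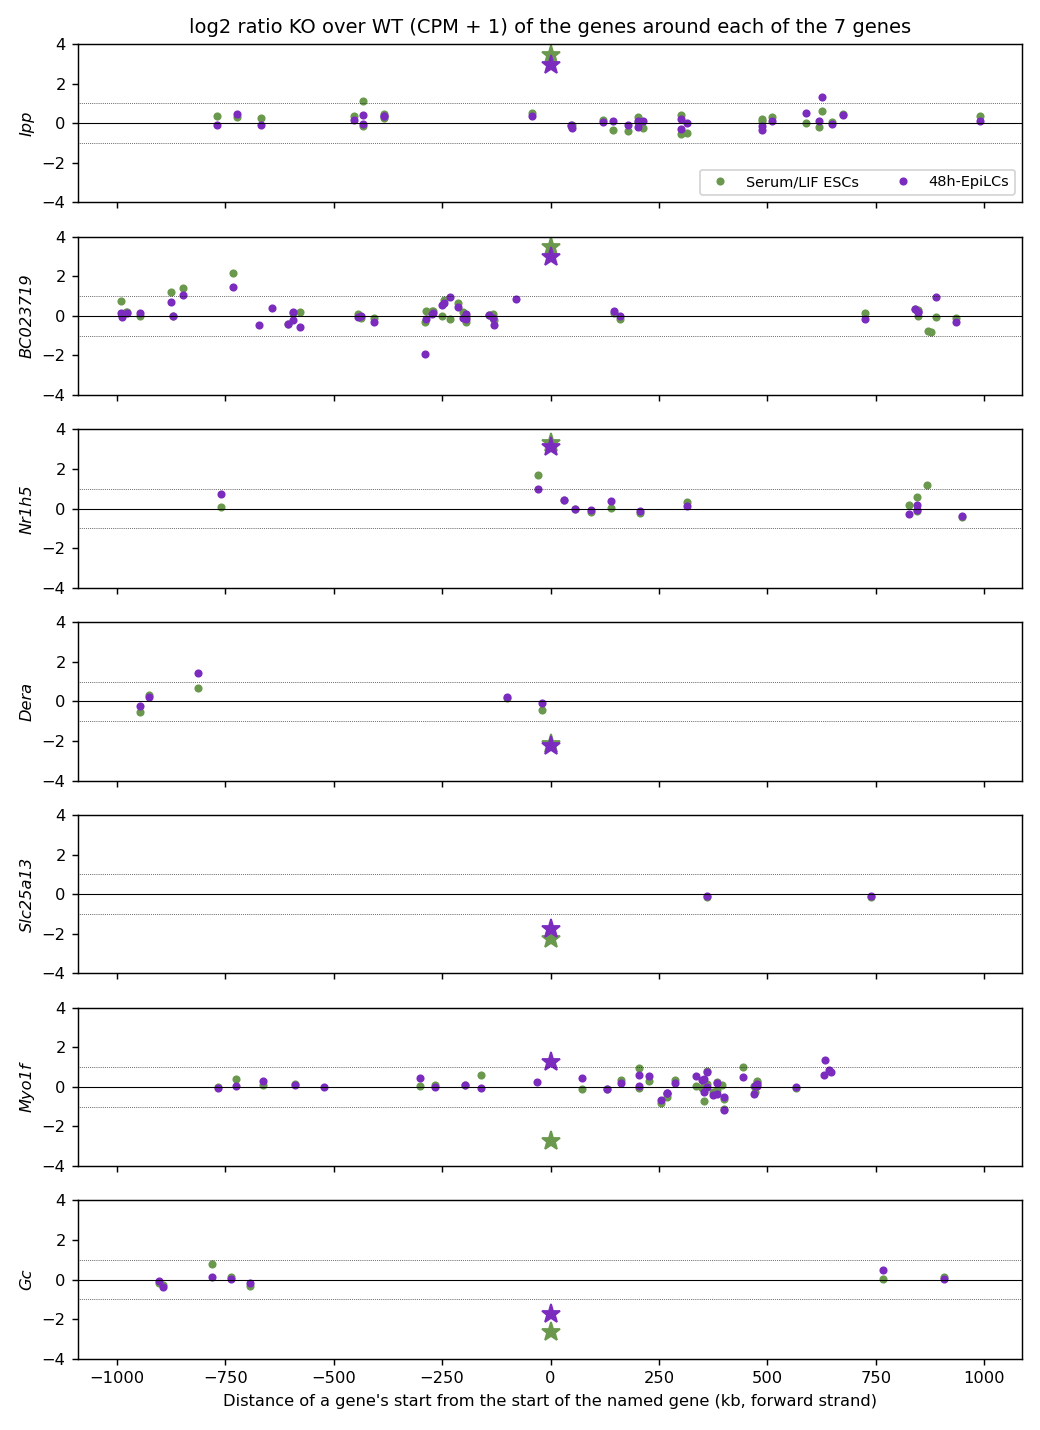
log2 ratio KO over WT of CPM + 1 (y axis) of each gene of at least 5 CPM by the distance of its start from that of the named gene (x axis, kb), 1 panel per named gene, with ESCs in green and 48h-EpiLCs in purple. Stars mark the named gene and dotted lines 2-fold. The stars stand far from most of their neighbours, which had a median of 0.04 in ESCs and 0.06 in 48h-EpiLCs within 500 kb, and Sycp1 at -28.0 kb of Nr1h5 is the nearest gene past 2-fold.

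Most tested genes related to the 7 by pathway or family were inside 2-fold. In ESCs the share past 2-fold lower in KO, which rests on 3 genes, was above that of all genes. Of 69 such genes on 7 lists, 64 were found and 40 reached 5 CPM in ESCs, of which 1 was past 2-fold higher and 3 lower in KO, where 3.59% and 1.46% of all genes were. In 48h-EpiLCs 42 reached 5 CPM, of which 1 was higher and none lower, where 2.31% and 0.938% of all genes were. In the malate-aspartate shuttle list of Slc25a13, 1 of 8 was past 2-fold at each stage: Slc25a12, which encodes aralar, the other aspartate-glutamate carrier. It stood at 37.4 and 76.2 CPM in ESCs (log2 1.01) and at 9.16 and 27.2 CPM in 48h-EpiLCs (log2 1.47), higher in KO where Slc25a13 was lower. Mdh2, the member of this list with most UMIs, stood at 350 and 297 CPM in ESCs and 453 and 394 CPM in 48h-EpiLCs. The medians of the list were 0.11 and -0.04.

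Among 7 nucleoside salvage genes tested beside Dera in ESCs, Pnp, which splits purine nucleosides, was past 2-fold lower in KO (241 and 100.0 CPM, log2 -1.26). In 48h-EpiLCs it stood at 92.1 and 54.6 CPM (-0.74) and none of 8 was past 2-fold. Upp1, a uridine phosphorylase with most UMIs of the list, had -0.30 in ESCs and 0.90 in 48h-EpiLCs. Of 12 kelch-repeat genes tested beside Ipp in ESCs, 2 were past 2-fold lower in KO, Klhl9 (-1.12) and Klhl13 (-1.26), which encode substrate adaptors of a Cul3 ubiquitin ligase used in mitosis. In 48h-EpiLCs they had -0.96 and -0.95, and none of 13 was past 2-fold. Enc1 had most UMIs of this list in 48h-EpiLCs, at -0.21.

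No gene of the other 4 lists that reached 5 CPM was past 2-fold at either stage. Of the nuclear receptors, 3 of 9 reached 5 CPM. Nr1h2, liver X receptor beta, stood at 44.8 and 56.4 CPM in ESCs and 47.4 and 54.1 CPM in 48h-EpiLCs, and Rxra, a partner of the Nr1h receptors, had 0.74 and 0.73. Nr1h4, the better known farnesoid X receptor, had 0 UMIs in WT-called cells of both libraries (which allows up to 0.487 CPM in ESCs and 0.482 CPM in 48h-EpiLCs) and at most 0.0227 CPM in KO-called cells. Of the class I myosins, 4 of 7 in ESCs and 3 in 48h-EpiLCs reached 5 CPM, and Myo1c had 0.59 and 0.44. Of the albumin family and vitamin D genes, Lrp2, a receptor that takes up the vitamin D-binding protein in kidney, was tested and had -0.17 and -0.36, while the albumin relatives Alb, Afp and Afm were under 1 CPM. In the H2-T region, 5 genes in ESCs and 6 in 48h-EpiLCs reached 5 CPM, and Abcf1 had 0.04 and 0.07. With a mean under 5 CPM, H2-T3 stood at 0.812 and 5.12 CPM in WT-called and KO-called ESCs (log2 of CPM + 1, 1.76) and at 0.965 and 3.59 CPM in 48h-EpiLCs (1.23), in the direction of BC023719. H2-T23 stood at 1.79 and 6.64 CPM in ESCs (1.46), a mean also under 5 CPM, and at 4.50 and 8.84 CPM in 48h-EpiLCs (0.84). H2-T3 and H2-T23 were named after their values had been seen.

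Over the 4 levels (2 lines, 2 stages), the 2 autosomal genes most like each of the 7 were taken by the distance of centred log2(CPM + 1) values, among 8520 genes. Nr1h5 and Ipp were each other's nearest, at a distance of 0.231, with Gm11361 next for both. Gm10260 (distance 0.446) and Gm11361 (0.651) were nearest to BC023719. Both are listed on chromosome 13 and share 68.7% and 69.8% of their 31-base words with transcripts of Rps18, so their values are uncertain. Rps18 itself was lower in KO, at 2477 and 1130 CPM in ESCs, whereas Gm10260 stood at 37.9 and 412 CPM and Gm11361 at 6.17 and 77.8 CPM. Summed over the 3 features the level was 2522 and 1620 CPM in ESCs and 3042 and 1740 CPM in 48h-EpiLCs, and how reads were divided among them was not tested.

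Of the genes high in WT, Tcf15 and Meis2 were nearest to Dera, at distances of 0.378 and 0.531, and Tcf15 and AA465934 were nearest to Slc25a13, at 0.308 and 0.334. Gc had Aoah (0.879) and Peg3 (0.924). Myo1f had no close match: its nearest were Mymx at 1.26 and Ddx58 at 1.48, and Mymx had log2 ratios of -1.01 and 1.18. Likeness over 4 values describes these libraries and nothing more.

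Among annotated transcripts, the 7 genes share few exact 31-base words with other genes, apart from BC023719. Copies elsewhere in the genome were not searched. No 31-base word of Ipp or Gc transcripts occurred in transcripts of other genes, and the share was 0.0400% for Myo1f, 0.434% for Dera, 0.765% for Slc25a13 and 1.11% for Nr1h5. BC023719 shared 45% of its words with A930015D03Rik, which stood at 2.76 and 6.48 CPM in WT-called and KO-called ESCs and, in 48h-EpiLCs, at 2.25 and 5.87 CPM. Summed over both features, KO was higher by 3.12 on the log2 scale in ESCs (interval 2.65 to 3.63) and by 2.79 in 48h-EpiLCs (2.31 to 3.31).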

How the data were processed

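The deposited values were counts of UMIs per gene and cell barcode (10x Genomics 3' v2 kit). By the methods of the study and the submitters' processing notes, the authors made these UMI counts with Cell Ranger (version 3.0.2) at default settings on mm10 with the tdTomato coding sequence added. No normalisation or removal of free RNA is stated for them, and whether strand was used is not given in the sources used here. Counts of this kind take reads near the 3' end, so changes of exon use or start site are not seen.

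Barcodes under 1000 genes, or with over 10% of UMIs from mitochondrial genes, were dropped. UMIs were summed per called line and library and scaled to the total (CPM). Ratios were taken as log2 of CPM + 1, over genes with a mean of at least 5 CPM in the 2 lines, and past 2-fold means a log2 ratio of at least 1 or at most -1. Folds were taken on CPM without the added 1 and carry exact binomial 95% intervals, levels carry Poisson intervals and shares Clopper-Pearson intervals. Molecules were counted by UMI, and all intervals cover counting error only. A count of 0 allows up to 3 counts. No test was possible with 1 library per stage, and cells are not replicates. Shares were recomputed after thinning each cell to 5000 UMIs. The automatic threshold of Scrublet (in scanpy 1.11.5) marked 0 of 11054 ESCs and 1 of 9400 48h-EpiLCs (0.0106%), so it had not worked, doublets stayed in, and leaving out the 10% of cells with the highest scores was an alternative, as were other call rules, cell filters, pseudocounts, a centring and a wider window of 1000 kb. Positions came from GENCODE M21 (GRCm38, the build of mm10), in which 32235 of 32286 features were found. The ratio script was tested on simulated counts. Python 3.11.15, numpy 2.4.6, scipy 1.17.1 and pandas 2.3.3 were used.

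The named genes and all lists were chosen with earlier results of these data known. Named were the 7 genes, the genes that check the labels, neighbours past 2-fold (at most the 3 nearest per gene), related genes past 2-fold or with most UMIs in their list, and the 2 nearest genes by level.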

Additional observations from a re-analysis of the deposited data

Results flagged for a closer look

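The log2 ratio of Myo1f, KO over WT on CPM + 1, was -2.76 in ESCs and 1.28 in 48h-EpiLCs, so the 2 stages stood on opposite sides of 0. With 1 library per stage the difference between the stages was not tested. The 48h-EpiLC value rests on 8 UMIs in WT-called cells and on a mean level under 5 CPM.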

How the results depend on the processing

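No result has a replicate or a test, so each alternative moves a value only. All 7 genes stayed past 2-fold in ESCs and 6 in 48h-EpiLCs under the alternatives tried, except when cells were called by tdTomato alone, where 6 and 3 were, and 7 in 48h-EpiLCs with no minimum level. Calling by tdTomato alone puts every cell without a tdTomato UMI, WT cells included, into the KO group. The count of all genes past 2-fold went from 468 to 927 in ESCs and from 305 to 620 in 48h-EpiLCs with no minimum level, to 92 and 37 with tdTomato alone, and to 491 in 48h-EpiLCs after thinning. Centred on the median of all genes, 234 of 412 calls were higher in KO in ESCs, against 333 of 468, and 172 of 282 in 48h-EpiLCs, against 217 of 305. Of 168 recomputed ratios of the 7 genes, 130 moved by less than the mean of the 2 arms of their counting interval, 38 moved by more, and 0 changed sign. The ratio of Myo1f in ESCs ranged from -3.44 to -1.14 and that of Gc from -3.33 to -1.06, with the value nearest 0 under tdTomato alone, and that of Dera in 48h-EpiLCs from -2.69 to -0.94. Each of these lowest values came with the 10% of cells with the most UMIs left out. Lines called by the other named genes gave 7 and 6 past 2-fold, but those genes were chosen for the same difference. No paired analysis was possible because each stage had 1 library. Depth limits the low levels most: 8 Myo1f UMIs in WT-called 48h-EpiLCs and 20 BC023719 UMIs in WT-called ESCs carry their ratios.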
